A study of Mus musculus with 14 samples.

Results

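Old and young tumour-bearing hosts were compared across all genes measured in one population of bone marrow cells, sorted as positive for Sca1 and negative for Kit. The comparison rests on 6 of the 14 arrays of the series, 3 from old and 3 from young tumour-bearing mice, and on 13805 of 22180 named genes that were bright enough to test. All mice were female nude mice of the NCR-NU strain, which have no functional thymus, and the labels give age only as old or young. Tumour-bearing mice carried primary tumours matched in size, and the labels do not name the tumour. The other 8 arrays came from cancer-free mice that had received Matrigel as the control, 5 old and 3 young, and they entered the fit that estimates the spread of each gene. The labels call the mice biological replicates, and each gave 1 array. The cells were sorted by flow cytometry into lysis buffer, and their RNA was amplified from picogram amounts, labelled with biotin and hybridised in 1 colour.

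Bone marrow that is positive for Sca1 and negative for Kit is a mixture. It holds lymphoid cells and their precursors, plasmacytoid dendritic cells and other leukocytes that have lost Kit, in contrast to stem cells, which carry both markers. Genes of the cell cycle are transcribed mainly in dividing cells: those of DNA synthesis peak around S phase under E2F factors, and those of the spindle and of chromosome segregation peak later. Plasmacytoid dendritic cells sense viral nucleic acids through endosomal Toll-like receptors, MHC class II molecules present peptides to helper T cells, and the T cell receptor complex marks the T lineage, whose usual development needs a thymus.

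Array medians over all probes ran from 3.81 to 3.93, and every level below is the log2 value of a gene's brightest probe. The median over genes of the SD within a group was 0.31 in both tumour-bearing groups. With 3 arrays in each, the median SE of a difference was 0.27. Young replicate 1 had the lowest mean correlation with the other 13 arrays (0.908), followed by old replicates 3 and 2 (0.912 each), against up to 0.941 on the rest. The list of late neutrophil granule genes, which also holds the chemokine receptor gene Cxcr2, had a mean level of 6.48 on young replicate 1. On the other young arrays it was 5.69 and 5.56. Ribosomal protein genes had a mean of 8.12 on young replicate 1, against 8.72 and 8.63. The labels and files give no batch. The leukocyte gene Ptprc lay at 10.53 to 10.61 on the old and at 10.70 to 10.86 on the young arrays. Kit, the receptor absent from the sorted cells' surface, was at 5.69, 6.16 and 6.16 in old and at 7.03, 6.73 and 6.10 in young mice, each above 3.88, the floor that separated bright from dim genes. Its groups overlapped, with a difference of -0.62 ± 0.30 (old minus young, SE). Grn, which encodes granulin, differed by -0.28 ± 0.24.

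The first question was which genes differ between old and young hosts once both bear a tumour. None passed limma's test at an adjusted p under 0.05 over all genes, the smallest adjusted p being 0.0540. At an unadjusted p under 0.05, which is used below only to describe groups of genes, 518 genes (3.75%) were higher and 876 (6.35%) lower in old mice. The 2 groups did not overlap for 820 genes (5.94%) with all old arrays above the young ones and for 980 (7.1%) with all old arrays below. Centring each array on its median moved the split at an unadjusted p under 0.05 to 362 higher and 1099 lower. The median difference over all genes was 0.004, with 6970 differences above 0 and 6835 below. Differences beyond 1 on the log2 scale, a doubling or halving, numbered 498, of which 151 were higher and 347 lower in old mice. With 3 arrays against 3, an exact permutation test of a single gene cannot give a p below 0.1. These are bulk measurements, so fewer cells of a type and less RNA per cell cannot be told apart in anything that follows. The gene lists below were chosen with earlier results of these data known. Their shares therefore describe these data and are no independent support.

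Genes of cell division were lower in old tumour-bearing mice as a group, though none passed alone. Of 110 tested genes for mitosis, DNA replication and cyclins, 104 were lower in old tumour-bearing mice, 60 (54.5%) were lower at an unadjusted p under 0.05, against 6.35% of all genes, and 0 were higher. The mitosis, spindle and kinetochore list held the largest share. Of its 47 tested members 46 had a negative difference, 33 (70.2%) were lower at an unadjusted p under 0.05, and 31 had all old arrays below all young arrays, against 7.1% of all genes. The list's median difference was -1.03, against 0.004 for all genes. The mean level of its 47 members was 4.55, 4.74 and 5.15 on the old arrays and 5.79, 5.90 and 6.06 on the young arrays, so the old arrays all lay below the young ones, and old replicate 3 was the closest to them. Leaving out any 1 array left 26 to 36 members lower at an unadjusted p under 0.05. Markers of progenitors, of which 5 of 16 were lower at that level, and of plasmacytoid dendritic cells, 6 of 23, were lower on the same arrays, and their part in the result was not tested.

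Mki67, whose protein Ki-67 coats chromosomes of dividing cells, was at 6.10, 7.35 and 7.34 in old mice, against 9.08, 8.77 and 8.84 in young mice. The groups were separate, with old replicate 1 the lowest, and the difference was -1.97 ± 0.43 (adjusted p = 0.182 in limma). Top2a, the topoisomerase that untangles replicated chromosomes, was at 6.09, 5.73 and 7.27 in old and at 8.17, 7.94 and 8.43 in young mice. Its difference was -1.81 ± 0.45. Old replicate 3 was again nearest to the young arrays, without reaching them. Kif11, the kinesin that pushes spindle poles apart, was at 3.95, 4.68 and 6.33 in old and at 7.41, 6.49 and 7.41 in young mice, a difference of -2.12 ± 0.58. Smc2, a condensin subunit, differed less, by -0.98 ± 0.25, with 6.31, 6.95 and 6.43 in old and 7.51, 7.22 and 7.89 in young mice.

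The promoters of these genes are shown because cell cycle genes of late phases share short elements there. One is the cell cycle genes homology region, which the DREAM and MuvB complexes bind, and the other is the CCAAT box, which the factor NF-Y binds. The 250 bases before the RefSeq start, on GRCm38.p6, are given 5′ to 3′ on the gene's strand for the mitosis genes with the smallest p that had 1 promoter window with both elements. Capitals mark the first element, spelled TTTGAA on either strand (thus also TTCAAA) or TTCGAA, and the second, spelled CCAAT or its reverse complement ATTGG. The windows lie at chr7:135716380-135716629 (minus strand) for Mki67, chr11:99024190-99024439 (minus strand) for Top2a, chr4:52438971-52439220 (plus strand) for Smc2 and chr19:37376132-37376381 (plus strand) for Kif11.
Mki67: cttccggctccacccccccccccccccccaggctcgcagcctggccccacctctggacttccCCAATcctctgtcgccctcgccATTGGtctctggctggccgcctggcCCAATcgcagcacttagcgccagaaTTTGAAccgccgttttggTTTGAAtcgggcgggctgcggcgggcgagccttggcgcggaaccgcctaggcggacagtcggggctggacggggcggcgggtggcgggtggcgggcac
Top2a: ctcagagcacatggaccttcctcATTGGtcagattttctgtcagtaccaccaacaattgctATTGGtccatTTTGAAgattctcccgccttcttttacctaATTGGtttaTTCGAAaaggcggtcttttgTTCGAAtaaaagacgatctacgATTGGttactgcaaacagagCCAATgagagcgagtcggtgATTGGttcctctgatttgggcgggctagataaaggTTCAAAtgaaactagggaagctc
Smc2: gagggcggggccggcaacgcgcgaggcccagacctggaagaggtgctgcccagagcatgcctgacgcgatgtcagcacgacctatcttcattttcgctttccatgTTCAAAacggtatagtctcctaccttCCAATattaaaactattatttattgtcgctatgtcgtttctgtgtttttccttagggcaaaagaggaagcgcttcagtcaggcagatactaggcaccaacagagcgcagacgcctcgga
Kif11: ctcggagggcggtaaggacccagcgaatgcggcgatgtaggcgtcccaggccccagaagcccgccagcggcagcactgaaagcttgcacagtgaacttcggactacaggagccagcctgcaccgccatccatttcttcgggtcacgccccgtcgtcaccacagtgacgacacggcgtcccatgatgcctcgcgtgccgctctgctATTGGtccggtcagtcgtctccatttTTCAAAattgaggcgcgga

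In 43 windows of 40 mitosis genes, the hexamers occurred in 14 (32.6%) and a CCAAT box on either strand in 29 (67.4%). Of the 13433 windows of all genes tested, 12.4% held a hexamer and 34.5% a CCAAT box, and of all 32851 windows of the table, 17.1% and 33.8% did. Replication genes, many of which are activated earlier in the cycle, had a hexamer in 6 of 40 windows (15%) and a CCAAT box in 24 (60%). For cyclins and their kinases the numbers were 4 and 12 of 18 windows (22.2% and 66.7%). These are counts of letters in fixed windows, not of bound sites.

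Several kinetochore genes were lower. Ndc80, a subunit of the complex that grips microtubules, was at 3.61, 4.66 and 3.60 in old mice, against 7.52, 6.75 and 6.33 in young mice. That is a difference of -2.91 ± 0.63, the lowest of the mitosis members at an unadjusted p under 0.05. The old Ndc80 levels of 3.61 and 3.60 lay under the floor, so this is not an exact size. Nuf2, its partner, was at 4.36, 3.48 and 5.08 in old and at 5.94, 6.53 and 6.88 in young mice (-2.15 ± 0.40, adjusted p = 0.0911 in limma). Knl1, the scaffold of the same network, had 2.75, 5.01 and 4.29 in old and 7.32, 6.22 and 5.72 in young mice (-2.40 ± 0.76). No old array of these 3 genes reached a young one. Spdl1, which recruits dynein to kinetochores, was at 3.46, 4.08 and 3.21 in old and at 5.46, 5.29 and 5.41 in young mice. Its old mean lay under the floor, so the difference of -1.80 ± 0.30 is not an exact size. The checkpoint kinases Bub1 (-1.37 ± 0.34, old mean under the floor) and Bub1b (-1.45 ± 0.43) lay in the same direction.

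Motors and bundlers of the central spindle lay in the same direction. Kif23, the kinesin of the cytokinetic midzone, was at 4.37, 3.76 and 4.60 in old mice, against 6.25, 6.71 and 6.23 in young mice. This difference of -2.15 ± 0.36 had an adjusted p of 0.0656 in limma, among the smallest of all. Aspm, a spindle pole protein, was at 3.22, 3.43 and 3.19 in old mice, under the floor on each array, and at 4.38, 4.68 and 4.49 in young mice. Prc1, which bundles midzone microtubules, differed by -1.21 ± 0.34, Kif20a by -1.01 ± 0.29, Kif20b by -1.19 ± 0.28 and Kif15 by -1.44 ± 0.37. Some well-known mitotic genes did not reach an unadjusted p under 0.05. Birc5, the survivin subunit of the Aurora B complex, was at 4.19, 6.27 and 6.99 in old and at 7.20, 6.51 and 7.17 in young mice, and its groups overlapped through old replicate 3. Cdc20, the activator of the anaphase-promoting complex, overlapped as well (-0.97 ± 0.47). The polo kinase Plk1 was at 4.93, 4.83 and 5.92 in old and at 4.44, 6.36 and 7.70 in young mice.

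**Figure D1:**
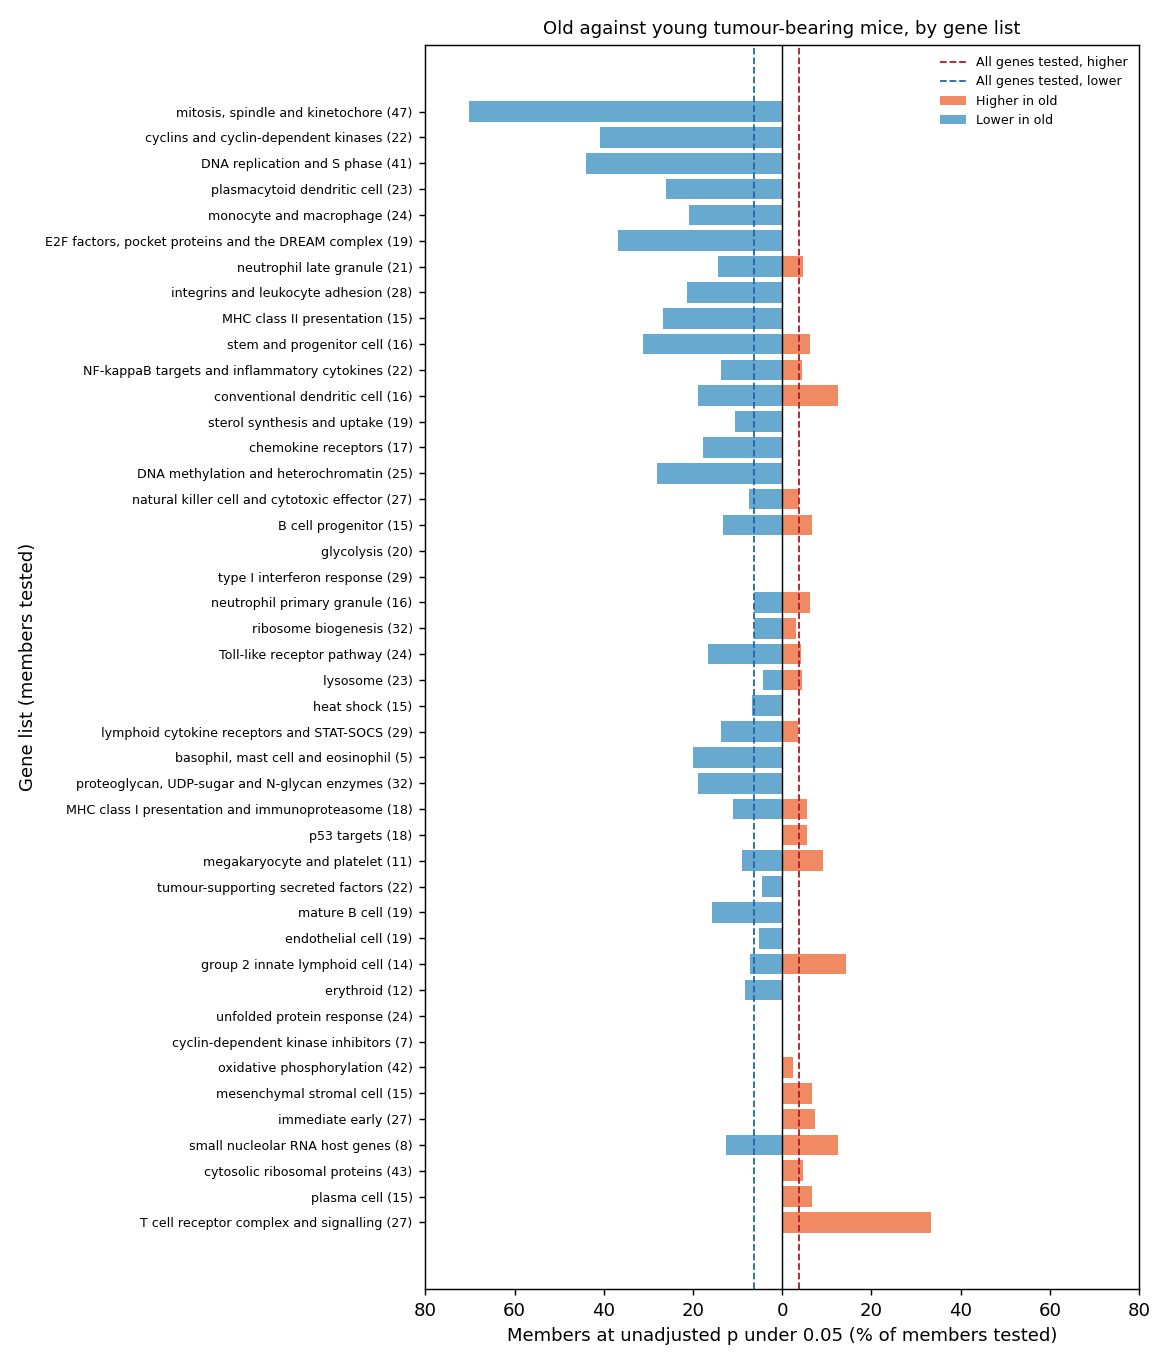
Share of each list's tested members at an unadjusted p under 0.05 in old against young tumour-bearing mice, in percent, with members lower in old mice to the left and higher ones to the right, and the number tested in brackets. Lists run by their median difference from lowest at the top, and dashed lines mark all genes tested (3.75% higher, 6.35% lower). The mitosis list reaches 70.2% to the left and the T cell list 33.3% to the right.

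DNA replication genes were lower as well. Of 41 tested, 39 had a negative difference. At an unadjusted p under 0.05, 18 (43.9%, against 6.35% of all genes) were lower and 0 higher. All old arrays lay below all young arrays for 14 (34.1%), against 7.1% of all genes. The list's median was -0.57. The members' mean level was 5.12, 5.13 and 5.57 on the old and 5.78, 5.91 and 6.05 on the young arrays, with no overlap. Hells, a chromatin remodeller needed for DNA methylation in dividing cells, led the list at 4.57, 4.996 and 4.83 in old, against 6.84, 6.29 and 6.28 in young mice (-1.67 ± 0.28, adjusted p = 0.0656 in limma). Pola1, the catalytic subunit of the polymerase that primes synthesis, was tight within each group. It had 4.27, 4.64 and 4.56 in old and 5.69, 5.73 and 5.78 in young mice, a difference of -1.24 ± 0.22. Subunits of the replicative helicase, Mcm3 (-1.36 ± 0.36), Mcm4 (-0.92 ± 0.22) and Mcm7 (-1.08 ± 0.35), were lower without overlap. The nuclease gene Exo1 differed by -1.56 ± 0.35, with its old mean under the floor. Pcna, the sliding clamp, is the brightest example: it was at 9.28, 8.74 and 9.55 in old and at 9.44, 9.90 and 10.14 in young mice, a smaller difference of -0.64 ± 0.23 with overlap. Brca2 and Fancd2, of recombination and crosslink repair, differed by -0.83 ± 0.22 and -0.72 ± 0.24, and both had old means under the floor.

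Among cyclins and cyclin-dependent kinases, 19 of 22 were lower, with a median of -0.65. At an unadjusted p under 0.05, 9 (40.9%, against 6.35% of all genes) were lower and 0 higher. Ccna2, the cyclin of S phase and mitotic entry, was at 5.44, 4.95 and 6.82 in old mice, against 8.29, 7.60 and 8.18 in young mice. Old replicate 3 was the highest of the old arrays but stayed under the young ones, and the difference was -2.29 ± 0.52 (adjusted p = 0.182 in limma). Cdk2, the kinase that drives replication, was at 4.61, 4.31 and 5.36 in old and at 5.71, 5.90 and 6.63 in young mice. Cdk1, its mitotic counterpart, was at 5.52, 4.66 and 7.06 in old and at 6.81, 6.55 and 7.08 in young mice, so its groups overlapped and its difference of -1.07 ± 0.55 did not reach an unadjusted p under 0.05. The phosphatase gene Cdc25c (-1.07 ± 0.34) and the kinase-binding Cks1b (-1.39 ± 0.44) and Cks2 (-1.79 ± 0.60) were lower without overlap. Ccnb2, a mitotic cyclin, differed by -1.26 ± 0.55, and Ccnd1, the cyclin that links growth signals to the cycle, by -0.88 ± 0.35 with overlap.

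Regulators upstream of these genes were mixed. Of 19 E2F factors, pocket proteins and DREAM subunits, 7 (36.8%, against 6.35% of all genes) were lower at an unadjusted p under 0.05 and 0 higher. The median was -0.33. The count was 4 without old replicate 1 and 4 without young replicate 1, and the median was -0.22 without old replicate 2 and -0.20 without young replicate 2. The atypical repressor E2f8, which is itself an E2F target, was at 4.35, 4.59 and 4.61 in old and at 6.24, 6.48 and 6.98 in young mice (-2.05 ± 0.45), and E2f7 differed by -0.99 ± 0.27. Foxm1, an activator of late cell cycle genes, was at 4.45, 4.86 and 5.37 in old and at 6.70, 6.36 and 5.49 in young mice, a narrow separation between old replicate 3 and young replicate 3. Lin9, a MuvB subunit (-1.15 ± 0.42), the E2F partner Tfdp1 (-1.58 ± 0.62) and the pocket protein Rbl1 (-0.73 ± 0.33) overlapped between groups. E2f3, an activating E2F, was at 5.43, 3.90 and 3.51 in old and at 5.10, 4.29 and 4.66 in young mice. Of 7 inhibitors of cyclin-dependent kinases, 0 reached an unadjusted p under 0.05 in either direction. Cdkn2a, which encodes p16 and p19Arf and is widely used as a mark of senescence, was at 5.12, 5.11 and 4.98 in old, against 4.36, 4.89 and 4.69 in young mice. All old arrays lay above the young ones, narrowly (lowest old 4.98, highest young 4.89), and the group means differed by 0.42 ± 0.24. Cdkn1a, the p53 target p21, differed by -0.19 ± 0.51. Of 18 p53 targets 1 (5.56%, against 3.75% of all genes) was higher at an unadjusted p under 0.05 and 0 lower.

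Several genes with no link to the cell cycle lists had the smallest p in the higher direction. Csn3, the milk protein kappa-casein, was at 5.80, 5.79 and 6.55 in old mice, against 4.28, 4.06 and 3.99 in young mice. Its difference was 1.94 ± 0.29 (3.83-fold, adjusted p = 0.0540 in limma), with young levels close to the floor. Of 8 milk protein genes on the array 2 were bright enough to test, and 1 of these had a positive and 1 a negative difference. The median of these 2 was 0.91 in tumour-bearing and 0.92 in cancer-free mice. In cancer-free mice 1 of the 2 was higher in old mice at an unadjusted p under 0.05, against 2.48% of all genes. The caseins Csn1s1, Csn1s2a, Csn1s2b and Csn2 stayed under the floor on every array, with highest levels of 1.93, 3.06, 2.20 and 2.96. Nop16, a nucleolar factor of ribosome assembly, was at 8.03, 7.84 and 7.18 in old and at 5.34, 5.30 and 6.30 in young mice, a difference of 2.04 ± 0.32. Npy, the neuropeptide Y gene, had the highest levels of the leading genes and the largest difference among them. It was at 8.99, 10.09 and 10.06 in old, against 6.53, 5.94 and 7.56 in young mice, 3.04 ± 0.58 higher (8.21-fold, adjusted p = 0.107 in limma). Cyp2b10, a cytochrome P450 of drug metabolism, was at 5.50, 5.01 and 5.95 in old mice. In young mice it was at 2.59, 3.30 and 3.01, under the floor, so its difference of 2.52 ± 0.46 is not an exact size.

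Gzmm, which encodes a granzyme of cytotoxic lymphocytes, was at 8.09, 7.74 and 7.51 in old and at 6.89, 5.79 and 6.14 in young mice (1.51 ± 0.27). The receptor of bacterial lipopeptides Tlr6 was at 7.25, 8.06 and 7.33 in old and at 6.59, 5.71 and 5.93 in young mice (1.47 ± 0.34). Both genes had every old array above every young one. The lens crystallin gene Cryba4 (1.35 ± 0.22), the serine protease Klk8 (1.57 ± 0.33), the adhesion receptor Adgrl2 (1.30 ± 0.26) and the C-type lectin Clec2i (1.34 ± 0.33) were among the 15 leading higher genes, as were Kbtbd2, Zfyve21, C9orf72, the calcium channel subunit Cacnb1 and Calhm6, at 0.71 to 1.18. The groups did not overlap for any of the 15, which were picked for the smallest p.

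Of the 15 leading lower genes 5 belong to the mitosis and replication lists described above. Sec14l1, of a family of lipid-binding proteins, was at 4.53, 4.08 and 4.58 in old, against 6.17, 5.51 and 5.79 in young mice (-1.43 ± 0.22, adjusted p = 0.0540 in limma). Ugdh, the enzyme that makes UDP-glucuronate for proteoglycans, was at 4.84, 4.62 and 4.12 in old and at 6.32, 6.01 and 5.95 in young mice (-1.57 ± 0.25). The adhesion receptor Adgrg1 was at 3.86, 3.67 and 3.58 in old mice, under the floor on all 3 arrays, and at 5.70, 4.90 and 5.59 in young mice. The nuclear export receptor Xpo1 had 5.95, 5.93 and 6.32 in old and 7.26, 7.48 and 7.09 in young mice, 2.32-fold lower in old. Kat6b, a histone acetyltransferase, was at 5.21, 5.11 and 5.45 in old and at 6.30, 6.28 and 6.25 in young mice (-1.02 ± 0.19). Mgat5, which branches N-glycans, differed by -1.19 ± 0.21, Fam91a1 by -1.64 ± 0.29, the zinc finger gene Rlf by -1.04 ± 0.21 and Txndc12, a thioredoxin-like protein of the endoplasmic reticulum, by -1.92 ± 0.39. Ogfrl1 had the largest difference of the 15, -2.49 ± 0.49, with its old mean under the floor.

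**Figure D2:**
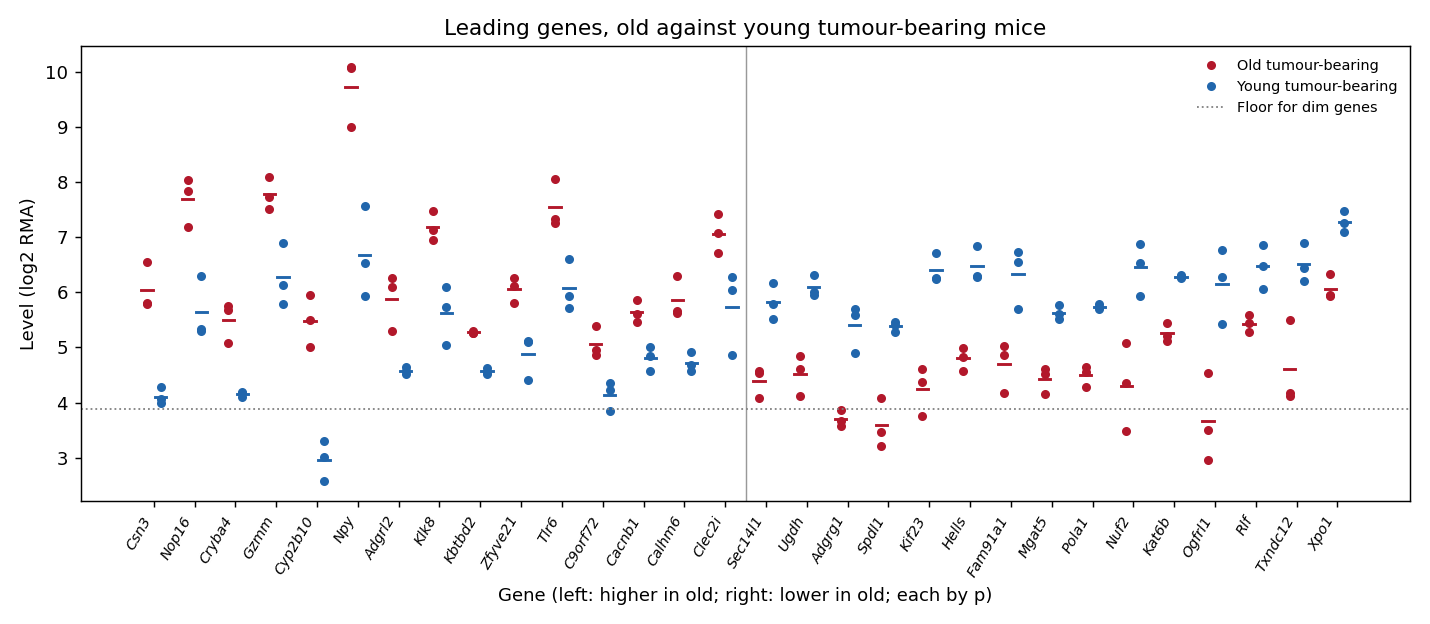
Level of the 15 genes with the smallest p in each direction, in log2 RMA units, on the 3 old (red) and 3 young (blue) tumour-bearing arrays, with bars at group means and a dotted line at the floor of 3.88. The groups do not overlap for these genes. Npy has the largest difference between group means among those higher in old mice, with old arrays at 8.99 to 10.09 and young arrays at 5.94 to 7.56.

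Plasmacytoid dendritic cell markers were lower in part. Of 23 tested, 19 had a negative difference, 6 (26.1%) were lower at an unadjusted p under 0.05, against 6.35% of all genes, and 0 were higher. The median was -0.52, and the members' mean level was 5.99, 5.91 and 5.81 on the old and 6.30, 6.51 and 7.28 on the young arrays, young replicate 3 being the highest. Without young replicate 3 the count was 4 lower and 1 higher and the median -0.27, and without young replicate 1 it was 9 lower. Siglech, a receptor that marks these cells, was at 7.64, 6.59 and 7.19 in old mice, against 8.79, 8.55 and 9.79 in young mice (-1.90 ± 0.50). Spib, a transcription factor of plasmacytoid and B cells, was at 5.31, 3.11 and 3.93 in old and at 7.98, 5.99 and 7.36 in young mice, a difference of -2.99 ± 0.80 with no overlap. Cox6a2, a subunit of cytochrome oxidase used by these cells, was at 7.75, 8.58 and 8.58 in old and at 9.50, 9.49 and 10.13 in young mice. The DNA sensor Tlr9 (-1.37 ± 0.42) and the transcription factor Irf8 (-1.45 ± 0.65) were lower without overlap, and Bcl11a (-1.29 ± 0.53) with overlap. Other markers did not reach that level. Tcf4, the master regulator of the lineage, was at 7.57, 8.04 and 8.15 in old and at 8.20, 7.99 and 8.43 in young mice, and the interferon regulator Irf7 was higher by 0.49 ± 0.42, not past an unadjusted p of 0.05. Of 29 genes of the type I interferon response, which these cells can drive, 0 reached that level, and 2 were lower without young replicate 1 and 2 without young replicate 3.

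MHC class II genes were lower in 13 of 15 cases, 4 (26.7%, against 6.35% of all genes) at an unadjusted p under 0.05, with a median of -0.25. The count was 2 without young replicate 2, and the median was -0.45 without young replicate 1 and -0.40 without old replicate 3. The members' mean level was 6.01, 6.17 and 5.96 on the old and 6.39, 6.69 and 6.40 on the young arrays. H2-Eb2, a class II beta chain, was at 5.35, 5.49 and 5.57 in old, against 7.84, 6.84 and 6.23 in young mice (-1.50 ± 0.36). H2-Oa, which tempers peptide loading in B cells and dendritic cells, was at 5.22, 5.71 and 4.15 in old and at 5.998, 6.39 and 6.28 in young mice (-1.20 ± 0.35). The peptide exchanger H2-DMa (-0.69 ± 0.26) and the alpha chain H2-Aa (-1.14 ± 0.44, with overlap) completed the 4. The activator of class II genes, Ciita, differed by -0.24 ± 0.22 and the brightest classical chain, H2-Ab1, by -0.45 ± 0.26. Of 16 conventional dendritic cell markers 3 (18.75%) were lower and 2 (12.5%) higher at an unadjusted p under 0.05, against 6.35% and 3.75% of all genes. The lower ones were the growth factor receptor Flt3, at 3.73, 4.89 and 4.73 in old and 5.56, 6.98 and 6.92 in young mice, the integrin Itgax (-1.81 ± 0.49) and Wdfy4 (-0.70 ± 0.27), needed for cross-presentation. The higher ones were Cd8a, described next, and Zbtb46 (0.45 ± 0.20), which lay close to the floor.

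T cell genes lay in the other direction. Of 27 genes of the T cell receptor complex and its signalling, 19 had a positive difference, 9 (33.3%) were higher at an unadjusted p under 0.05, against 3.75% of all genes, and 0 were lower. The median was 0.29, and 7 did not overlap, against 5.94% of all genes. The count depended on single arrays: it was 3 without old replicate 1, 4 with 1 member lower without young replicate 1, 6 without young replicate 3 (where the median was 0.16), and 5 with 1 lower without old replicate 3 and young replicate 1 together. Young replicate 1 is the array with high late granule genes (mean 6.48) and low ribosomal protein genes (8.12), whose part in the result was not tested. The members' mean level was 7.65, 7.41 and 7.48 on the old and 6.91, 7.36 and 6.88 on the young arrays. Cd8a, the coreceptor chain of cytotoxic T cells that some dendritic cells also carry, was at 8.76, 8.71 and 8.33 in old mice, against 6.78, 6.66 and 6.37 in young mice (1.99 ± 0.59, adjusted p = 0.281 in limma). All old arrays lay above the young ones. Its partner chain Cd8b1 was at 9.64, 8.54 and 8.17 in old and at 6.56, 7.91 and 7.16 in young mice. Cd3e, a signalling chain of the receptor, was at 10.74, 10.52 and 10.14 in old and at 9.30, 9.90 and 8.69 in young mice (1.17 ± 0.37), while Cd3d overlapped through young replicate 2, with 9.56, 8.97 and 9.29 in old and 6.07, 9.09 and 8.04 in young mice. Cd5, which dampens receptor signals, was at 7.68, 8.46 and 8.50 in old and at 7.37, 6.96 and 5.36 in young mice. Themis, a T lineage signalling protein (1.39 ± 0.46), Cd27, a costimulatory receptor (1.12 ± 0.43), the receptor subunit Il7r (0.72 ± 0.28) and the lineage factor Bcl11b (0.80 ± 0.31) were the others. Members that did not reach an unadjusted p under 0.05 include Cd4 (-0.09 ± 0.40), the kinase Zap70 (0.10 ± 0.41) and the factor Gata3 (0.11 ± 0.27).

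Of 27 genes of natural killer cells and cytotoxic effectors 1 was higher and 2 were lower at an unadjusted p under 0.05, shares of 3.7% and 7.41% that lie near those of all genes (3.75% and 6.35%). The number lower depended on single arrays. It was 6 without young replicate 1, 7 without old replicate 3 and young replicate 1, 5 with the replicate number as a block, 1 without young replicate 2 and 0 without young replicate 3, and 3 were higher without old replicate 3. Gzmb, the granzyme that triggers apoptosis, was at 5.01, 6.26 and 6.60 in old, against 6.74, 8.20 and 8.17 in young mice (-1.75 ± 0.65), opposite to Gzmm, and Cd244a (-0.85 ± 0.32) was the other lower one. Perforin, Prf1, overlapped between groups (0.14 ± 0.42). Of 14 markers of group 2 innate lymphoid cells, 2 (Il7r and Bcl11b, shared with the T cell list) were higher and 1 was lower at that level. These are shares of 14.3% and 7.14%, against 3.75% and 6.35% of all genes. None was higher without old replicate 1 or without young replicate 1, and there were 3 lower without young replicate 3. The lower one was Il2ra, the interleukin 2 receptor alpha chain, at 5.96, 6.61 and 5.83 in old and at 6.83, 7.16 and 7.74 in young mice (-1.11 ± 0.30), and Il17rb, a receptor of interleukin 25, was at -0.67 ± 0.33. The early activation antigen Cd69 was at 7.14, 6.67 and 7.37 in old and at 5.01, 6.68 and 4.54 in young mice (1.65 ± 0.49), overlapping through young replicate 2.

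**Figure D3:**
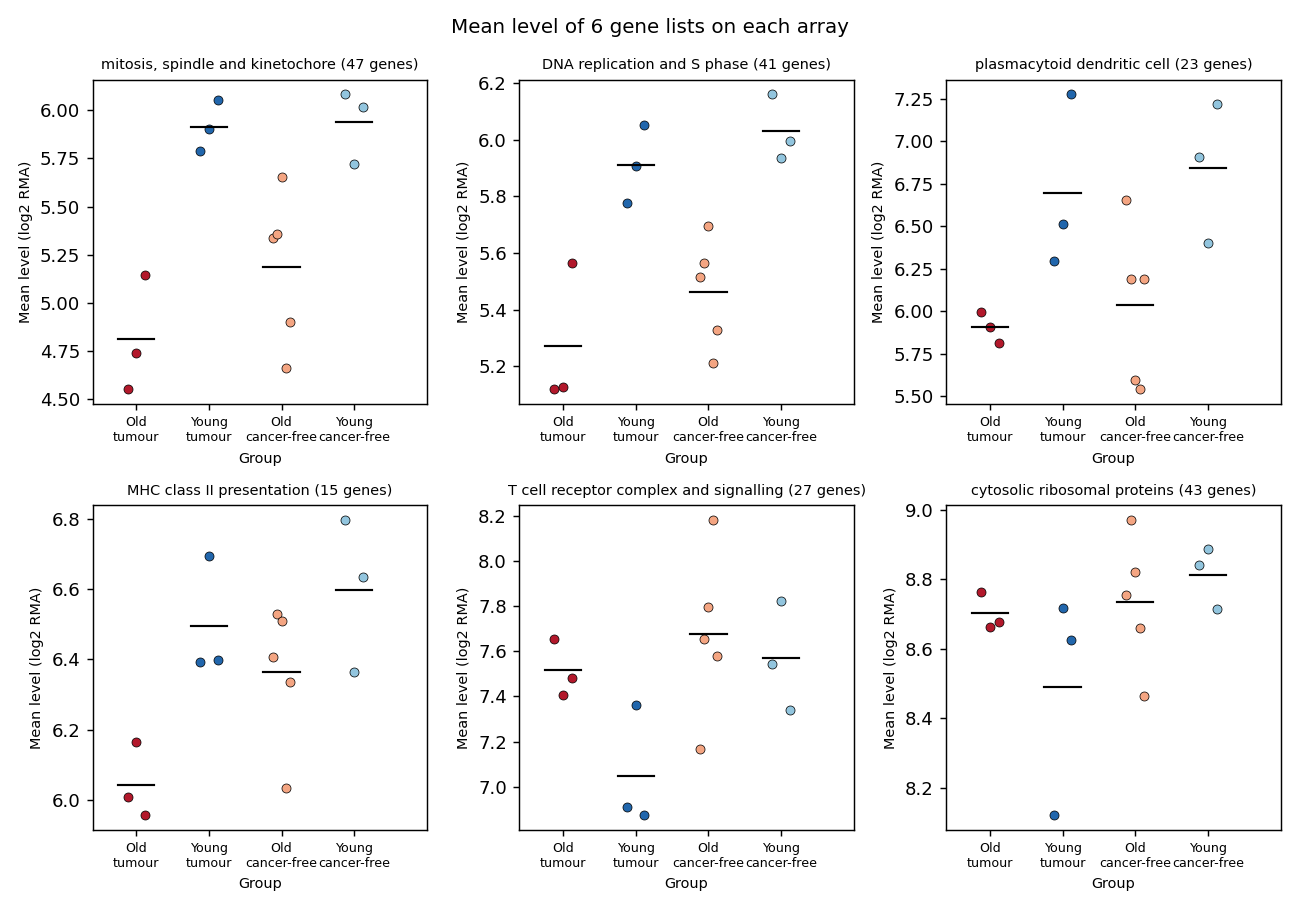
Mean level of 6 gene lists on every array, in log2 RMA units, with 1 point per mouse and a bar at the group mean; the vertical axes differ between panels and do not start at 0. Old tumour-bearing arrays lie below the young tumour-bearing ones for mitosis (4.55 to 5.15, against 5.79 to 6.06), replication, plasmacytoid and MHC class II genes and above them for T cell genes, and the lowest ribosomal mean, 8.12, belongs to young replicate 1.

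Progenitor and monocyte genes were lower in part. Of 16 stem and progenitor genes, 5 (31.2%) were lower and 1 (6.25%) was higher at an unadjusted p under 0.05, against 6.35% and 3.75% of all genes. The median was -0.22. The count of lower genes was 3 without old replicate 1, and the median was -0.09 without young replicate 3 and -0.41 without young replicate 2. Besides Adgrg1 and Flt3, they were Myb, a factor of immature blood cells, at 5.13, 5.86 and 5.97 in old and at 6.43, 7.02 and 7.81 in young mice, the kinase Cdk6 (-0.95 ± 0.31), which belongs to the cyclin list too, and Sox4 (-1.09 ± 0.38). The higher one was Hlf (0.53 ± 0.22), a factor of stem cells, near the floor. Of 24 monocyte and macrophage genes 5 (20.8%, against 6.35% of all genes) were lower and 0 higher at that level, with a median of -0.46. The count was 3 without old replicate 2, and the median was -0.24 without old replicate 1. The myeloid integrin Itgam was at 4.31, 4.56 and 4.41 in old, against 5.57, 4.81 and 5.59 in young mice (-0.90 ± 0.23), and the chemokine receptor Cx3cr1 at 6.75, 5.69 and 5.67, against 7.49, 6.79 and 6.77. The matrix protein Fn1 and the transglutaminase F13a1 stood high on old replicate 3, and the groups overlapped. Fn1 was at 4.08, 4.32 and 7.31 in old and at 8.32, 6.90 and 7.83 in young mice, and F13a1 at 4.45, 4.10 and 7.53, against 7.33, 6.38 and 7.78. Ace, the angiotensin-converting enzyme, differed by -0.79 ± 0.26.

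Of 16 genes of primary neutrophil granules 1 was lower and 1 higher (6.25% each) at an unadjusted p under 0.05. Of all genes, 6.35% were lower and 3.75% higher, so these counts lie near the background. The lower one, myeloperoxidase (Mpo), was at 5.01, 5.34 and 6.48 in old and at 8.36, 6.98 and 7.65 in young mice (-2.05 ± 0.58). The higher one, Cst7, a cystatin also made by cytotoxic lymphocytes, differed by 0.74 ± 0.26. Late granule genes had 3 lower (14.3%) and 1 higher (4.76%) of 21 at an unadjusted p under 0.05. The count of lower genes was 1 without young replicate 1 and 0 without old replicate 3 and young replicate 1 together. Young replicate 1 was high in them: Mmp8 was at 3.66, 4.36 and 4.96 in old and at 7.74, 4.996 and 5.28 in young mice, and Cxcr2 at 5.59, 5.23 and 5.05, against 7.89, 5.55 and 5.83. Among 28 integrins and adhesion molecules 6 (21.4%, against 6.35% of all genes) were lower and 0 higher, and 4 were lower without old replicate 2. Pecam1, an adhesion molecule of leukocytes and endothelium, was at 5.73, 5.39 and 5.37 in old and at 6.19, 6.77 and 6.57 in young mice (-1.01 ± 0.23), and Itga2, a collagen receptor subunit, at 6.14, 5.37 and 5.32, against 7.44, 7.06 and 7.24 (-1.64 ± 0.40). The transferrin receptor Tfrc, listed as erythroid but used by any cell that divides, was at 4.86, 4.85 and 5.79 in old and at 6.82, 6.84 and 7.80 in young mice (-1.99 ± 0.46), while 11 other erythroid genes tested did not reach an unadjusted p under 0.05. Of 5 tested genes of basophils, mast cells and eosinophils, the chymase Cma1 was lower (-1.11 ± 0.44, old mean under the floor), and Prg2, Ms4a2 and Il5ra overlapped between groups at -0.64 to 0.53. Markers of mesenchymal stroma (0 lower and 1 higher of 15) and endothelium (1 lower and 0 higher of 19, Pecam1) lay near the background at an unadjusted p under 0.05. All old arrays lay above all young ones for 3 of the mesenchymal genes (20%), against 5.94% of all genes.

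Some chromatin regulators were lower too. Of 25 genes of DNA methylation and heterochromatin 7 (28%, against 6.35% of all genes) were lower at an unadjusted p under 0.05 and 0 higher. Of the lower ones, 2 (Hells and Uhrf1) are shared with the replication list. The list's median was -0.17, and -0.27 without young replicate 3. Ezh2, the methyltransferase of the Polycomb complex, was at 5.39, 5.79 and 6.64 in old, against 6.70, 6.92 and 7.54 in young mice (-1.11 ± 0.31), and its partner Suz12 at 7.06, 6.95 and 7.08, against 7.70, 7.64 and 8.02 (-0.76 ± 0.18). Cbx5, the heterochromatin protein HP1 alpha, differed by -1.13 ± 0.31 and the methyltransferase Setdb1 by -0.74 ± 0.29. The maintenance methyltransferase Dnmt1 itself was at -0.22. Enzymes of proteoglycan, nucleotide sugar and N-glycan synthesis were listed with earlier results known, and Ugdh and Mgat5 are leading lower genes, so their share is no support. Of 32 tested, 6 (18.8%, against 6.35% of all genes) were lower at that level and 0 higher, yet the median was -0.04. It was -0.18 without old replicate 3, -0.01 without young replicate 2 and 0.003 under cyclic loess scaling. With Ugdh and Mgat5 the lower enzymes were B4galt5 (-0.96 ± 0.27), the heparan sulfate enzymes Hs2st1 (-1.11 ± 0.34, old mean under the floor) and Ext1 (-0.89 ± 0.31), and B3gnt5 (-0.77 ± 0.26).

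The design also asks whether these age differences are particular to tumour-bearing hosts. The difference between the age effect in tumour-bearing and that in cancer-free mice passed for 0 genes in limma, with a smallest adjusted p of 0.736, and 355 genes (2.57%) were above and 255 (1.85%) below 0 at an unadjusted p under 0.05. The 2 age comparisons share no array. Of the 876 genes lower at an unadjusted p under 0.05 in tumour-bearing mice, 722 had a negative difference in cancer-free mice too, and of the 518 higher ones 312 had a positive difference there. The share of all tested genes with each sign in cancer-free mice was not counted, so these counts have no background beside them. Mitosis genes had a median of -1.03 in tumour-bearing and -0.73 in cancer-free mice, replication genes -0.57 in both, cyclins -0.65 and -0.45, plasmacytoid markers -0.52 and -0.75, MHC class II genes -0.25 and -0.20, and T cell genes 0.29 and 0.10. In cancer-free mice 24 mitosis, 20 replication and 9 plasmacytoid genes were lower at an unadjusted p under 0.05, against 5.17% of all genes, and 0 T cell genes were higher, against 2.48%.

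The 5 genes with the smallest p for that difference were Rlf, Ralb, Naip6, Nop16 and Klk8, each with adjusted p = 0.736 in limma. Ralb, a small GTPase, was at 7.25, 7.46 and 7.51 in old and at 6.64, 6.34 and 5.79 in young tumour-bearing mice. In cancer-free mice old arrays had a lowest, median and highest level of 5.02, 6.15 and 6.43, and the 3 young arrays 6.75, 6.70 and 7.05, so the age differences were 1.15 ± 0.33 with and -0.98 ± 0.29 without a tumour. Nop16 differed by 2.04 ± 0.32 with a tumour and -0.04 ± 0.29 without, and Klk8 by 1.57 ± 0.33 and -0.54 ± 0.30. Rlf was at -1.04 ± 0.21 and 0.38 ± 0.19, and the inflammasome gene Naip6, whose old mean with a tumour lay under the floor, at -0.95 ± 0.33 and 1.16 ± 0.29. Cd8a and Cd5 differed by 1.99 ± 0.59 and 1.65 ± 0.59 with a tumour and by 0.09 and -0.09 without, but the difference of these effects had an adjusted p of 0.976 in limma for both.

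**Figure D4:**
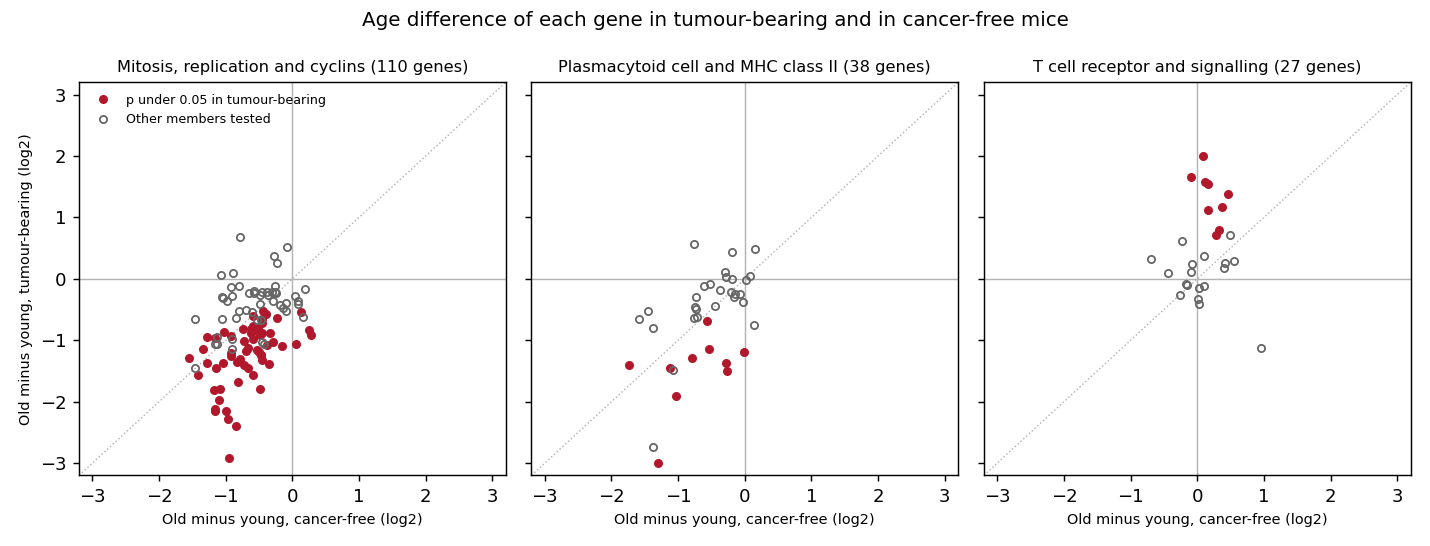
Old minus young difference of each gene in tumour-bearing mice (vertical, log2) against that in cancer-free mice (horizontal, log2), for 110 cell cycle, 38 plasmacytoid and MHC class II and 27 T cell genes; filled points are at an unadjusted p under 0.05 in tumour-bearing mice and the dotted line marks equal differences. Most cell cycle genes lie below 0 on both axes, while the 9 filled T cell points lie above 0 on the vertical axis with horizontal values of -0.09 to 0.45.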

How the data were processed

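The authors deposited log2 expression values per probe for 14 arrays per the submitters' processing notes, which name RMA, oligo 1.32.0 and R 3.2.0. They do not say whether all arrays were normalised in one run or whether probes were filtered. The table does not state its scale, and its range of 0.29 to 13.78 is that of log2 RMA values. Of 41345 probes, 23521 had 1 gene symbol, 1814 several and 16010 none, and 23328 matched the mouse reference tables by Entrez identifier. Several probes measured 1082 genes, of which the brightest was kept, giving 22180 genes. A gene was tested if above the table median, 3.88, on at least 3 arrays. Ly6a, the gene of Sca1, is not analysed here.

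The 4 group means were fitted over all 14 arrays in limma 3.58.1 under R 4.3.3 (lmFit, eBayes, residual degrees of freedom 10, prior 3.86), with two-sided tests and Benjamini and Hochberg adjustment over 13805 genes at 0.05. The fit was tested on simulated data. Gene lists (45, with 997 genes on the array and 903 tested) are described by counts and medians. Some genes are in more than 1 list. The members and lists were chosen with earlier results of these data known.

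Named genes were the 15 with the smallest p in each direction (leaving aside small RNA genes, predicted genes and receptors of smell or pheromones), list members, genes called under any alternative, the 5 with the smallest p for the difference between age effects, and Kit, Ptprc and Grn. Promoters are RefSeq windows on GRCm38.p6, which held 10738 of the tested genes. Alternatives covered the dim gene filter, the scaling, the variance prior, array weights, the probe rule, the groups fitted, the replicate block and leaving out arrays.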

Additional observations from a re-analysis of the deposited data

How the results depend on the processing

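In limma 0 genes passed for old against young tumour-bearing mice as analysed (1394 at an unadjusted p under 0.05). Centring each array on its median gave 7 (Csn3 and Cryba4 higher; Adgrg1, Hells, Kif23, Sec14l1 and Ugdh lower), and so did the mean of a gene's probes (Csn3, Cryba4, Nop16, Adgrg1, Sec14l1, Ugdh and Dcaf12). Dcaf12 was at -2.11 there, against -0.42 for its brightest probe, so its probes disagree. Leaving out the 2 least correlated arrays, old replicate 3 and young replicate 1, gave 6 (Cspp1, Dph6, Gzmm, Napsa, Nuf2 and Prr11). Leaving out 1 array gave 0 to 2, the 2 being Dph6 and Prr11 without old replicate 3, in which Dph6 had its one low old level (5.87, against 7.71 and 7.60). The other alternatives gave 0, with a smallest adjusted p of 0.0546 to 0.271. Genes higher at an unadjusted p under 0.05 numbered 951 without the dim gene filter, 219 with the filter at the 75th percentile (5.48) and 323 with only the tumour-bearing groups fitted. Genes without overlap and higher numbered 1459 and 282 under those filters, 1442 to 1626 without 1 array and 2437 without the 2 arrays, and lower ones 1561 to 1827 and 2937, since fewer arrays separate more easily. Without the 2 arrays the list medians were -1.29 for mitosis, -0.85 for replication, -0.91 for cyclins and -0.95 for plasmacytoid markers, and leaving out 1 array took cyclins to between -0.54 and -0.88. Differences changed sign for Snhg12 (-0.0709 without old replicate 1, up to 1.87 without old replicate 3, against 0.89 with all arrays), E2f3 (0.19) and Grn (0.0362, both without the 2 arrays). The difference between age effects passed for 0 genes under all 15 alternatives that could give it. Old and young mice share replicate numbers, and the labels do not say whether these pair the mice. The deviations of equal numbers correlated at 0.007, -0.001 and 0.041, and those of unequal numbers at -0.041 to 0.036. With 3 arrays a group these values cannot decide whether the numbers pair the mice. With the replicate number as a block, 0 genes passed (1404 at an unadjusted p under 0.05) and 4 plasmacytoid genes and 5 natural killer genes were lower and 5 immediate early genes higher at that level.

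Limits: with 3 arrays a group, the median SE of a difference was 0.27. Among genes at an unadjusted p under 0.05, 200 had a group mean under the floor, and their differences are not exact sizes.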

Other observations

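Of 43 cytosolic ribosomal protein genes 33 had a positive difference and 2 (4.65%, against 3.75% of all genes) were higher at an unadjusted p under 0.05. All old arrays lay above all young ones for 7 (16.3%), against 5.94% of all genes. The median was 0.17, but -0.02 without young replicate 1, the array with the lowest ribosomal mean. The count was 6 higher without young replicate 2 or without young replicate 3. Rpl34 was at 7.50, 7.46 and 8.46 in old and at 4.06, 6.75 and 5.11 in young mice. The 42 genes of oxidative phosphorylation had a median of 0.08, and of -0.14 without young replicate 1. Of 24 genes of the unfolded protein response and 20 of glycolysis 0 reached an unadjusted p under 0.05. Of 32 ribosome biogenesis genes Nop16 was higher (3.125%) and Heatr1 (-0.58 ± 0.22) and Rrs1 (-0.76 ± 0.34) were lower (6.25%) at that level. These shares lie near those of all genes (3.75% and 6.35%), and 0 were lower without old replicate 2 or without young replicate 1.

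Of 27 immediate early genes, induced within minutes of a stimulus, 2 (7.41%, against 3.75% of all genes) were higher at an unadjusted p under 0.05. They were Zfp36 (0.56 ± 0.25) and Ppp1r15a (1.01 ± 0.43), both with overlap. The count varied widely. It was 6 without old replicate 3, 7 without old replicate 3 and young replicate 1, 5 without young replicate 2, 5 with the replicate number as a block, 4 under cyclic loess scaling, and 0 without old replicate 2, without young replicate 3 or with only the tumour-bearing groups fitted. In cancer-free mice 9 of the 27 were higher and 1 lower in old mice, against 2.48% and 5.17% of all genes.

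Against 3.75% of all genes higher and 6.35% lower, the Toll-like receptor pathway had 1 higher (4.17%) and 4 lower (16.7%) of 24, NF-kappaB targets and inflammatory cytokines 1 higher and 3 lower (13.6%) of 22, and lymphoid cytokine receptors and their signalling 1 higher and 4 lower (13.8%) of 29. Of the Toll-like receptor list 1 was lower without old replicate 1 and 1 without young replicate 3. Tlr6, described above, was its higher gene. Il10ra, a receptor chain of the anti-inflammatory interleukin 10, was at 6.58, 6.10 and 5.33 in old and at 7.90, 7.03 and 7.81 in young mice (-1.58 ± 0.37). Cd180 (-1.33 ± 0.50) and its partner Ly86 (-1.15 ± 0.45), of a receptor complex related to the endotoxin receptor, were lower without overlap, as were the chemokine Ccl4 (-1.29 ± 0.40) and Nfkbia (-0.54 ± 0.21), the inhibitor of NF-kappaB. Genes of sterol synthesis and uptake showed 9 positive and 10 negative differences of 19, with 2 lower at an unadjusted p under 0.05, Hmgcs1 (-1.07 ± 0.33) and Fdft1 (-1.30 ± 0.46). Of 15 heat shock genes 1 was lower, the co-chaperone Stip1, at 7.40, 7.41 and 7.33 in old and at 8.12, 8.42 and 8.07 in young mice (-0.83 ± 0.20). Of 8 small nucleolar RNA host genes 1 was higher and 1 lower. Snhg1 was at 8.17, 8.65 and 8.11 in old, against 7.16, 7.75 and 7.48 in young mice, and it was higher in old cancer-free mice too (1.26 ± 0.25).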
